A study of Mus musculus with 9 samples.

Results

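Arterial endothelial cells (AECs) of mouse bone marrow were divided by the brightness of a GFP reporter, and the transcripts of Nestin-GFPbright AECs were compared with those of Nestin-GFPdim AECs. The comparison uses 6 of the 9 libraries of the series, 3 of Nestin-GFPbright AECs and 3 of Nestin-GFPdim AECs, which carry the numbers 1, 3 and 4 in each fraction. The other 3 libraries hold sinusoidal endothelial cells (SECs), carry the same numbers and were left out of every fit; their levels are given only for orientation. All 9 came from marrow of Nestin-GFP transgenic mice with no further treatment or mutation named, so the reporter is common to the groups. Nestin-GFPbright AECs were live single cells sorted as CD45- Ter119- CD31+ PDPN- Sca-1bright with bright GFP. Nestin-GFPdim AECs passed the same gates with dim GFP, and SECs were CD45- Ter119- CD31+ PDPN+ Sca-1dim. The study used young adult mice of both sexes in its experiments, and the sources used here do not give the age or sex of the animals behind each library. Nor do the labels say whether libraries with the same number came from the same animals or from pools, so p values measure only the spread between these libraries, which may be technical.

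Nestin is an intermediate filament protein best known from neural progenitors. In bone marrow, transgenes that place GFP under nestin regulatory sequence label small arteries and the perivascular cells around them. GFP brightness reports the activity of that transgene and need not follow the transcript of the gene itself. Arterial endothelium is recognised by gap junction proteins, Notch ligands and Sox17, and sinusoidal endothelium by scavenger receptors such as stabilins. Pericytes and smooth muscle cells, the mural cells of vessels, lie directly against the endothelium and express contractile and signalling genes of their own. In bulk libraries, fewer cells of a type and less RNA per cell cannot be told apart.

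Sequencing depth, as reads assigned to the listed genes, was 21442578 to 54383312 in Nestin-GFPbright AECs and 13895090 to 40677442 in Nestin-GFPdim AECs, and 1 read per kilobase stood for 0.0218 to 0.071 RPKM (reads per kilobase of transcript, scaled to library size). The kit carries no molecular identifiers and PCR copies count as reads, so depth covers counting error only. Of 17232 listed genes, the 15389 with at least 0.1 RPKM in at least 3 of the 6 libraries were tested on log2(RPKM + 1). Fold changes are on that scale, Nestin-GFPbright minus Nestin-GFPdim, and understate the change of genes with low levels.

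The fractions differed in no gene past the threshold. With limma, 0 of 15389 genes (0%) had a Benjamini-Hochberg adjusted p under 0.05, the smallest being 0.999. At an unadjusted p under 0.05, 214 genes (1.39%) were higher and 276 (1.79%) were lower in Nestin-GFPbright AECs, and limma with voom on the recovered reads also called 0 genes, with 241 genes higher and 299 lower at an unadjusted p under 0.05. With the replicate number as a block, 0 genes were called with a smallest adjusted p of 0.261, and 921 (5.98%) were higher and 521 (3.39%) lower at an unadjusted p under 0.05. Leaving out a library moved these counts, to 478 higher and 418 lower without Nestin-GFPdim replicate 1, 347 higher without Nestin-GFPbright replicate 1, 134 higher without Nestin-GFPdim replicate 3 and 151 lower without Nestin-GFPbright replicate 4. Libraries of the fractions did not overlap for 542 genes that were higher (3.52%) and 610 that were lower (3.96%) in Nestin-GFPbright AECs. A gene under 0.1 RPKM in all 3 libraries of a fraction was tested only through the other fraction. Its lack of overlap was then set by the filter, and such genes are within these counts. An exact permutation test of 3 libraries against 3 cannot give a p below 0.1. Within the numbers 1, 3 and 4, the difference of Nestin-GFPbright minus Nestin-GFPdim had the same sign every time for 2611 genes that were higher (17%) and 1948 that were lower (12.7%). These shares, those with the replicate block included, are the background against which the members and list counts named here are to be read. The genes are therefore described by their values in each library and not as calls.

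**Figure D1:**
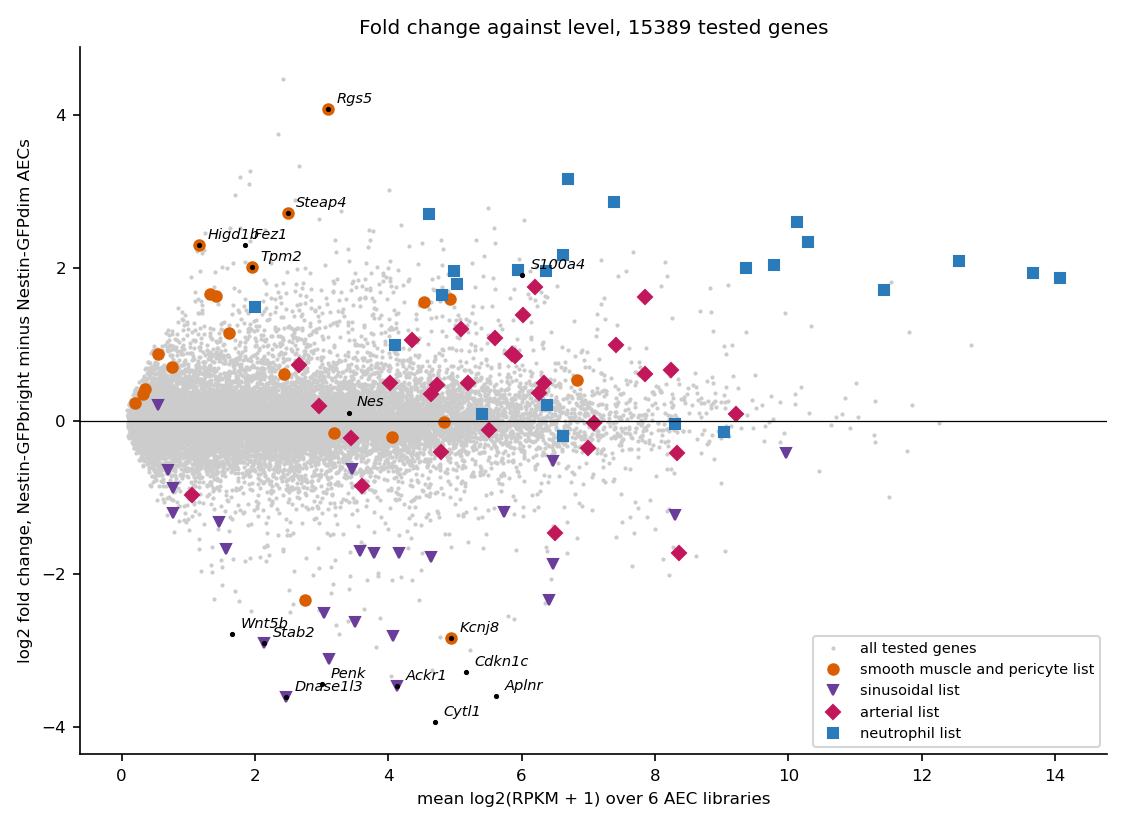
Log2 fold change of Nestin-GFPbright minus Nestin-GFPdim AECs (y axis) against the mean log2(RPKM + 1) of the 6 AEC libraries (x axis) for the 15389 tested genes, with 4 gene lists coloured. Most smooth muscle and pericyte genes lie above 0, with Kcnj8 at -2.84, and most sinusoidal genes lie below 0; Nes itself lies at 0.11.

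Nes transcripts did not separate the fractions that were sorted by nestin reporter brightness. Nes stood at 3.03, 21.5 and 13.7 RPKM in Nestin-GFPbright AECs (libraries 1, 3 and 4), against 5.77, 9.6 and 13.8 RPKM in Nestin-GFPdim AECs. The ranges overlapped, and the lowest value of all was a Nestin-GFPbright library. Its log2 fold change was 0.11 (standard error 0.67), and the differences within numbers 1, 3 and 4 were -0.75, 1.09 and -0.01. The sign of the fold change turned without Nestin-GFPbright replicate 3 (-0.41), without Nestin-GFPbright replicate 4 (-0.1) or without Nestin-GFPdim replicate 1 (-0.19). Both fractions were above SECs, where Nes stood at 0.735 to 0.894 RPKM. The gene lies on chromosome 3 of GRCm38 from 87971078 to 87980451. The 250 bases before its RefSeq start, chr3:87970843-87971092 on the + strand of GRCm38.p6, are shown because they include the promoter region of the endogenous gene whose transcript was measured; the reporter's own construct is not shown.

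Nes: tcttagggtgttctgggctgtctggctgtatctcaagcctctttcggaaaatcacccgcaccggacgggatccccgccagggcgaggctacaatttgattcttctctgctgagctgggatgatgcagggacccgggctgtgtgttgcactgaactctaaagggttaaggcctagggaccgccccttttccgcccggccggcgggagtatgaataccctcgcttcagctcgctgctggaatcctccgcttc

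This window holds no E-box (CANNTG, which reads the same on both strands), a motif present in 66.2% of 32851 RefSeq windows of the same length.

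The other genes of the sort gates were likewise alike in range. Ly6a, which encodes Sca-1, stood at 993, 3490 and 2880 RPKM in Nestin-GFPbright AECs, against 1530, 1920 and 3040 RPKM in Nestin-GFPdim AECs, and Pecam1, which encodes CD31, stood at 97.7, 379 and 300 RPKM in Nestin-GFPbright AECs against 137, 377 and 418 RPKM in Nestin-GFPdim AECs. Pdpn did not reach the minimum for testing, with at most 0.866 RPKM in Nestin-GFPbright AECs and at most 0.0818 RPKM in Nestin-GFPdim AECs. Ptprc, which encodes the blood cell antigen CD45 used to exclude cells, was still read in every library, at 44.5, 5.23 and 12.6 RPKM in Nestin-GFPbright AECs and 23.6, 1.85 and 1.73 RPKM in Nestin-GFPdim AECs. Of the 9 tested genes of the intermediate filament list, 0 had an unadjusted p under 0.05 in either direction, and with the replicate block 3 were higher and 0 lower. Fold changes were positive for 8 of the 9, and their median on the log2 scale was 0.34, against 0.01 over all tested genes. Vim, which encodes vimentin, the partner filament of nestin, stood at 395, 1150 and 844 RPKM in Nestin-GFPbright AECs and 310, 353 and 562 RPKM in Nestin-GFPdim AECs.

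Blood cell transcripts differed widely between libraries of both fractions, and these values stand beside all results. Summed over the 25 neutrophil genes tested, levels were 311000, 38200 and 59000 RPKM in Nestin-GFPbright AECs (libraries 1, 3 and 4) and 216000, 9310 and 7300 RPKM in Nestin-GFPdim AECs. Replicate 1 was the highest in each fraction, and within each number the Nestin-GFPbright library was the higher. Ngp, a neutrophil granule protein gene, stood at 39800, 4880 and 10100 RPKM in Nestin-GFPbright AECs and 22200, 1230 and 926 RPKM in Nestin-GFPdim AECs. The list had a median log2 fold change of 1.93, with 0 of 25 members at an unadjusted p under 0.05 in the fit without a block and 20 higher with the replicate block. The groups overlapped for every member. The median was 3.37 without Nestin-GFPdim replicate 1, when 17 members were higher at an unadjusted p under 0.05, and it lay between 0.98 and 1.17 without Nestin-GFPbright replicate 1, without Nestin-GFPdim replicate 3 or without Nestin-GFPdim replicate 4. Summed levels of the B and plasma cell list ranged from 568 to 24400 RPKM in Nestin-GFPbright AECs and from 221 to 13900 RPKM in Nestin-GFPdim AECs, and those of the erythroid list from 1500 to 9820 RPKM in Nestin-GFPbright AECs and from 94 to 34300 RPKM in Nestin-GFPdim AECs. Megakaryocyte and platelet genes summed to 2220 RPKM in Nestin-GFPbright replicate 1 and to at most 259 RPKM in the other 5 AEC libraries. The part of these transcripts in the differences described here was not tested.

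**Figure D2:**
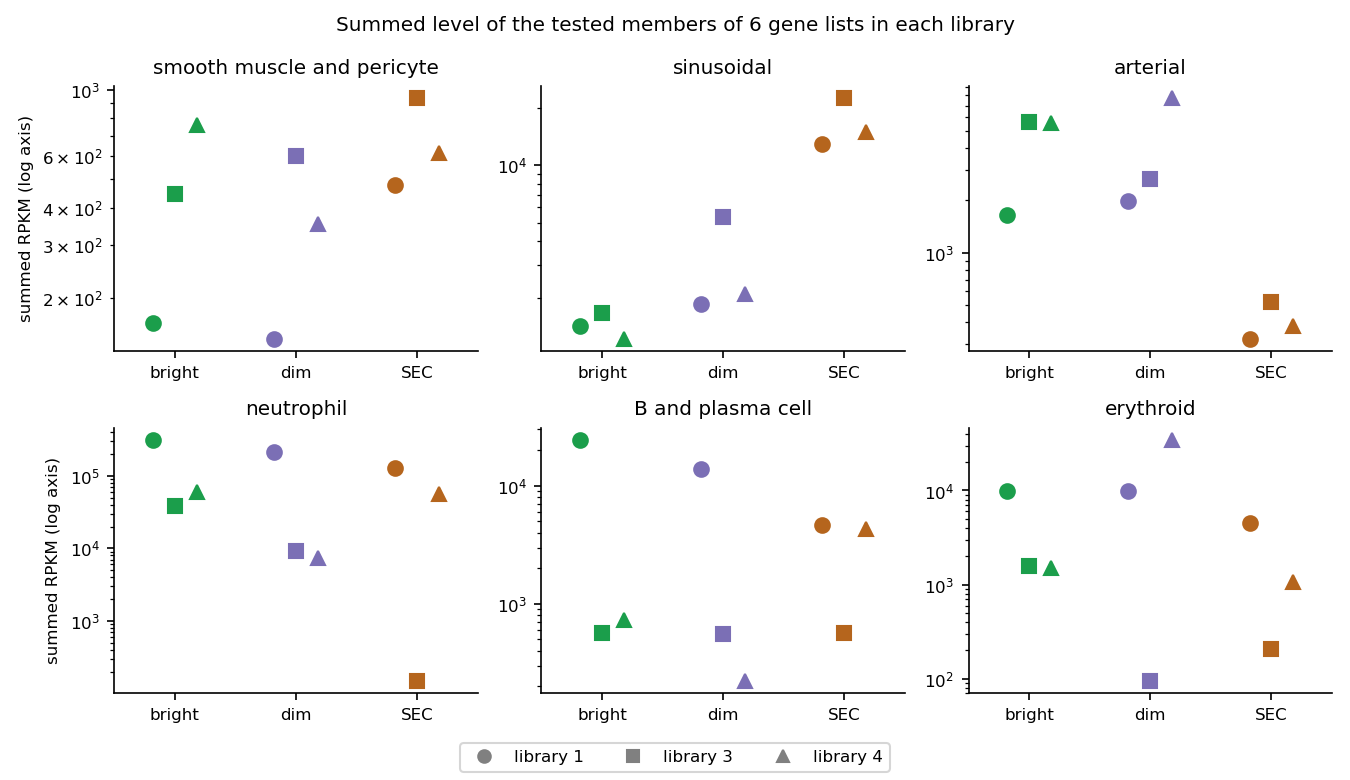
Summed RPKM of the tested members of 6 gene lists in each library on a log axis, for both AEC fractions (bright, dim) and for SECs, with the marker shape giving the library number. Neutrophil and B cell sums are highest in replicate 1 of each fraction, and the sinusoidal sum is highest among AECs in Nestin-GFPdim replicate 3, at 5320 RPKM.

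Mural cell genes were among those with the widest gaps on the Nestin-GFPbright side. Rgs5, a regulator of G protein signalling used as a pericyte marker, stood at 11.9, 37.7 and 86.9 RPKM in Nestin-GFPbright AECs, against 0.423, 3.08 and 0.571 RPKM in Nestin-GFPdim AECs. Every Nestin-GFPbright library was above every Nestin-GFPdim library, and SECs had at most 0.447 RPKM. The log2 fold change was 4.08 (standard error 0.76, adjusted p = 0.999 from limma, unadjusted p = 0.0012 without a block). Its adjusted p ranged from 0.291 to 1 over the alternatives, and the difference within numbers 1, 3 and 4 was 3.18, 3.25 and 5.81. Rgs5 lies on chromosome 1 of GRCm38 from 169655501 to 169695813. Among the 11 tested genes of the RGS family, which speed the shutdown of G proteins, Rgs5 was the only member with libraries that did not overlap and with an unadjusted p under 0.05; with the replicate block 4 were higher and 0 lower.

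Of 25 genes on the smooth muscle and pericyte list, 23 were tested, and their median log2 fold change was 0.61 against 0.01 over all tested genes. Their summed level was 164, 445 and 761 RPKM in Nestin-GFPbright AECs and 145, 599 and 355 RPKM in Nestin-GFPdim AECs, with overlap. Within number 3 the Nestin-GFPdim sum was the higher, and SECs summed to 477, 936 and 610 RPKM. Kcnj8 and Abcc9, which were lower in Nestin-GFPbright AECs and are given below, made up most of the Nestin-GFPdim replicate 3 sum. They were also a large part of the SEC sums, so these sums do not stand for the other members. The libraries did not overlap for 8 members that were higher in Nestin-GFPbright AECs (background 3.52%) and 2 that were lower (background 3.96%). The 8 include Higd1b and Notch3, which passed the filter only through Nestin-GFPbright AECs, so their lack of overlap was set by it. At an unadjusted p under 0.05, 7 were higher and 2 lower, and with the replicate block 12 and 2. Without the libraries numbered 1, which held the most neutrophil transcripts, the median was 0.81, with 9 higher and 2 lower at an unadjusted p under 0.05. The median was 1.12 without Nestin-GFPbright replicate 1 (11 higher), 0.39 without Nestin-GFPbright replicate 4 (7 higher) and 0.34 without Nestin-GFPdim replicate 1 (6 higher). Some of these genes had been seen to differ in these libraries, so the count is no independent evidence of its direction.

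Steap4, a metalloreductase of the list, stood at 11.5, 7.82 and 26.1 RPKM in Nestin-GFPbright AECs, against 5.02, 0.709 and 0.0174 RPKM in Nestin-GFPdim AECs. The last of these rests on 2 reads. Higd1b, a mitochondrial protein gene used as a pericyte marker, stood at 0.753, 7.36 and 7.22 RPKM in Nestin-GFPbright AECs and had no read in any Nestin-GFPdim library. With 3 reads per library as the floor, equal to 0.251 RPKM in the shallowest Nestin-GFPdim library, its mean was at least 20.3-fold higher. Tpm2, which encodes beta-tropomyosin, stood at 4.01, 7.8 and 9.83 RPKM in Nestin-GFPbright AECs, against 0.0999, 1.29 and 1.87 RPKM in Nestin-GFPdim AECs (log2 fold change 2.01, standard error 0.49). On log2(RPKM + 1) its difference was 2.19, 1.94 and 1.91 within numbers 1, 3 and 4. The added 1 evens out low values, so the ratios of RPKM were not alike. The lowest Nestin-GFPdim value, in replicate 1, rests on 4 reads. Over the alternatives the log2 fold change ran from 1.61 to 3.39.

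The receptors of the list were low but did not overlap, which for Notch3 was set by the filter. Pdgfrb, the receptor for platelet-derived growth factor B on pericytes, stood at 2.06, 3.69 and 6.24 RPKM in Nestin-GFPbright AECs, against 0.144, 0.152 and 1.63 RPKM in Nestin-GFPdim AECs. Notch3, the Notch receptor of mural cells, stood at 0.434, 1.57 and 1.13 RPKM in Nestin-GFPbright AECs against 0.0802, 0.0718 and 0.0844 RPKM in Nestin-GFPdim AECs. Ndufa4l2 and Cspg4, which encodes the NG2 proteoglycan, also had higher values in every Nestin-GFPbright library, Cspg4 at no more than 0.794 RPKM.

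Contractile genes of smooth muscle were mixed. Acta2, which encodes smooth muscle alpha-actin, stood at 21, 45.6 and 143 RPKM in Nestin-GFPbright AECs, against 8.65, 21.1 and 24.3 RPKM in Nestin-GFPdim AECs, and these ranges overlapped. Myh11, the smooth muscle myosin heavy chain, stood at 1.42, 3.44 and 7.9 RPKM in Nestin-GFPbright AECs against 0.0438, 1.09 and 2.96 RPKM in Nestin-GFPdim AECs. Within each number the Nestin-GFPbright library was higher for both genes. Tagln, which encodes transgelin, was not higher, at 3.7, 18.8 and 38.4 RPKM in Nestin-GFPbright AECs and 6.45, 16.6 and 41.9 RPKM in Nestin-GFPdim AECs. Acta2, Myh11, Tagln, Pdgfrb, Cspg4 and Ndufa4l2 were named outside the rule for named genes and after their values were seen.

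Kcnj8 and Abcc9 were the 2 members of the list that were lower without overlap, while 18 of the 23 tested members had positive fold changes and 5 had negative ones. They encode the pore and the sulfonylurea receptor of an ATP-sensitive potassium channel that is known from pericytes. Kcnj8 stood at 4.76, 11.5 and 20.3 RPKM in Nestin-GFPbright AECs, against 39, 321 and 42.3 RPKM in Nestin-GFPdim AECs, and Abcc9 stood at 0.607, 2.26 and 4.12 RPKM in Nestin-GFPbright AECs against 9.08, 33.1 and 8.99 RPKM in Nestin-GFPdim AECs. Both were higher still in SECs, at 308 RPKM or more for Kcnj8 and 110 RPKM or more for Abcc9. Nestin-GFPdim replicate 3 had the highest AEC level of each.

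Promoter windows of the mural genes were searched for the E-box and for the CArG box, the serum response factor motif of many contractile genes. Of 25 genes on the list, 20 matched a RefSeq entry by symbol, with 22 windows. An E-box stood in 15 of them (68.2%, against 66.2% of all windows) and a CArG box in 1, that of Myl9 (4.55%, against 1.47%). A match is a description of the letters and not a site in use. The 250 bases before the start are shown for Rgs5, Steap4 and Tpm2, the mural genes with wide gaps and a RefSeq window, with E-boxes in capitals. They are chr1:169655251-169655500 on the + strand, chr5:7960222-7960471 on the + strand and chr4:43523555-43523804 on the - strand of GRCm38.p6.

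Rgs5: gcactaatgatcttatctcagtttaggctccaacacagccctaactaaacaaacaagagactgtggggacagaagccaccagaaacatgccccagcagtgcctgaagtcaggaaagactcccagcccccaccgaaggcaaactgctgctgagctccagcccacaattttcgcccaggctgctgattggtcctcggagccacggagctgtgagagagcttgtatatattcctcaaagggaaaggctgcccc
Steap4: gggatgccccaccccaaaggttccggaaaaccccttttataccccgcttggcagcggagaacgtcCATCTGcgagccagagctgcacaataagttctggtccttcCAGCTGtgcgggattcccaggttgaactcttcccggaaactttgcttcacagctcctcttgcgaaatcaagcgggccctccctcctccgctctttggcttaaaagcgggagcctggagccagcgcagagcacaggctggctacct
Tpm2: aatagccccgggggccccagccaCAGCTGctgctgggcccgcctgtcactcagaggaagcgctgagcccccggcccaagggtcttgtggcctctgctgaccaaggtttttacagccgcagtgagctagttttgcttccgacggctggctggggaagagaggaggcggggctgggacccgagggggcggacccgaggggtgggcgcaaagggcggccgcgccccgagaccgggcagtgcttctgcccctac

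Steap4 holds 2 E-boxes, which begin 185 and 145 bases before the start, Tpm2 holds 1 that begins 227 bases before it, and Rgs5 holds none.

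Wnt5b had the smallest p of all genes in the fit without a block and was lower in Nestin-GFPbright AECs. It encodes a secreted Wnt ligand of the group that mostly signals without beta-catenin. Its level was 0.00256, 0.55 and 0.107 RPKM in Nestin-GFPbright AECs, against 5.4, 8.98 and 7.75 RPKM in Nestin-GFPdim AECs. Replicate 1 of Nestin-GFPbright AECs had 0 reads and the others 49 and 6, while the Nestin-GFPdim libraries had 202, 376 and 857. The log2 fold change was -2.78 (standard error 0.33, adjusted p = 0.999 from limma, unadjusted p = 8.15e-05 without a block). On log2(RPKM + 1) the differences within numbers 1, 3 and 4 were -2.68, -2.69 and -2.98. All Nestin-GFPbright values were under the added 1 RPKM, so these differences mostly follow the Nestin-GFPdim level. Their closeness, and the small p, do not show alike ratios. Over the alternatives the log2 fold change ran from -7.02 to -2.64. With the replicate block the adjusted p was 0.261, the lowest of its alternatives, which reached 1. In that limma fit Gm1673 had a smaller unadjusted p, 4.64e-05 against 6.53e-05 for Wnt5b. Gm1673 and Gm11707, also lower in Nestin-GFPbright AECs, had the same adjusted p of 0.261. SECs had 0.608 to 0.776 RPKM, below every Nestin-GFPdim library and above every Nestin-GFPbright library. The gene lies on chromosome 6 of GRCm38 from 119432531 to 119544347.

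No other tested Wnt gene showed such a gap. Of the 54 genes on the Wnt pathway list (ligands, Frizzled and Lrp receptors, secreted antagonists and targets), 27 were tested, and Wnt5b was the only member with an unadjusted p under 0.05 or with libraries that did not overlap. The median log2 fold change was -0.16, and 0.03 without Nestin-GFPdim replicate 4. Fzd8, a Frizzled receptor, stood at 0.295, 1.85 and 1.19 RPKM in Nestin-GFPbright AECs, against 1.38, 1.2 and 5.6 RPKM in Nestin-GFPdim AECs, and Fzd7 stood at 0.16, 0.139 and 0.42 RPKM in Nestin-GFPbright AECs against 0.205, 0.393 and 1.24 RPKM in Nestin-GFPdim AECs. The other 27 genes of the list were too low to test or not listed, so a difference in them was not detectable at this depth.

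**Figure D3:**
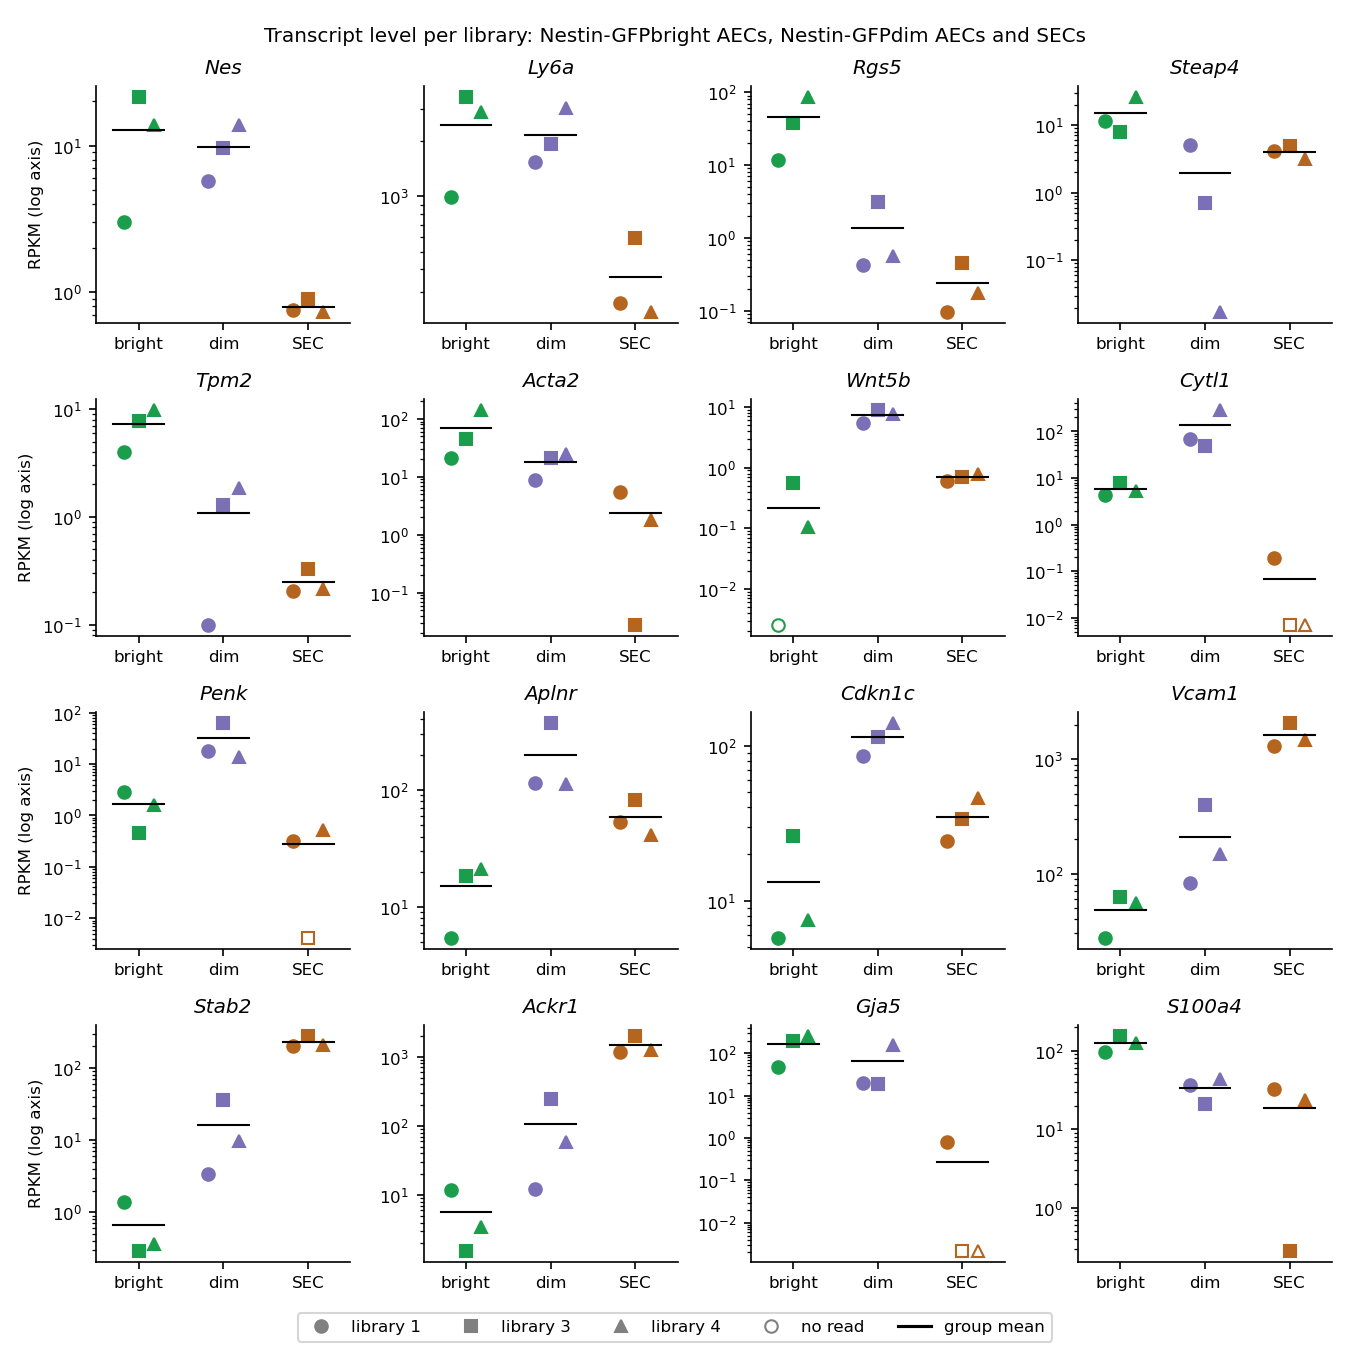
RPKM of 16 genes on log axes in each library of both AEC fractions (bright, dim) and of SECs, with the library number as marker shape, open markers for libraries without a read and lines at group means. Rgs5, Steap4, Tpm2 and S100a4 do not overlap and are higher in Nestin-GFPbright AECs; Wnt5b, Cytl1, Penk, Aplnr, Cdkn1c, Vcam1, Stab2 and Ackr1 do not overlap and are lower; Nes, Ly6a, Acta2 and Gja5 overlap.

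Several further genes resembled Wnt5b in being higher in Nestin-GFPdim AECs than in Nestin-GFPbright AECs and in SECs. Cytl1, which encodes a small secreted cytokine-like protein, stood at 4.23, 7.9 and 5.33 RPKM in Nestin-GFPbright AECs, against 70.3, 49 and 291 RPKM in Nestin-GFPdim AECs. SECs had at most 0.19 RPKM, with 2 libraries at 0 reads. The log2 fold change of -3.93 (standard error 0.66) was the widest on the lower side among genes with non-overlapping libraries and at least 5 RPKM. Penk, the precursor of the enkephalin opioid peptides, stood at 2.87, 0.458 and 1.59 RPKM in Nestin-GFPbright AECs, against 18.2, 62.7 and 14 RPKM in Nestin-GFPdim AECs, with at most 0.533 RPKM in SECs.

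Aplnr and Cdkn1c were expressed in all AEC libraries and were also highest in Nestin-GFPdim AECs. Aplnr, the G protein coupled receptor for apelin and a gene of veins and capillaries, stood at 5.45, 18.6 and 21.3 RPKM in Nestin-GFPbright AECs, against 115, 372 and 113 RPKM in Nestin-GFPdim AECs. SECs lay between, at 41.5 to 82.4 RPKM. Cdkn1c, which encodes the cyclin-dependent kinase inhibitor p57, stood at 5.73, 26.1 and 7.45 RPKM in Nestin-GFPbright AECs, against 85.8, 113 and 140 RPKM in Nestin-GFPdim AECs and 24.2 to 45.9 RPKM in SECs (log2 fold change -3.27, standard error 0.54). Itm2a, a membrane protein gene named after its values were seen, stood at 6.57, 9.67 and 10.7 RPKM in Nestin-GFPbright AECs, against 70.4, 66.5 and 24.3 RPKM in Nestin-GFPdim AECs. Of the cell cycle list, 0 of 33 tested genes had an unadjusted p under 0.05 in either direction, with a median of 0.29, and with the replicate block 1 was higher and 0 lower.

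Most genes that were lower in Nestin-GFPbright AECs were genes of higher level in SECs. Of the tested genes whose higher fraction averaged 5 RPKM or more, 287 had non-overlapping libraries and were lower in Nestin-GFPbright AECs, and in 215 of these (74.9%) the SEC mean exceeded the mean of the AEC libraries on the log2 scale. Among the 239 that were higher it did so in 50 (20.9%), and among all 7632 tested genes with at least 5 RPKM in either fraction in 3395 (44.5%). All 3 SEC libraries lay above all Nestin-GFPdim libraries for only 80 of the 287 genes and below them for 49, to which Cytl1, Penk, Wnt5b, Cdkn1c and Aplnr belong. These are descriptions without a test.

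**Figure D4:**
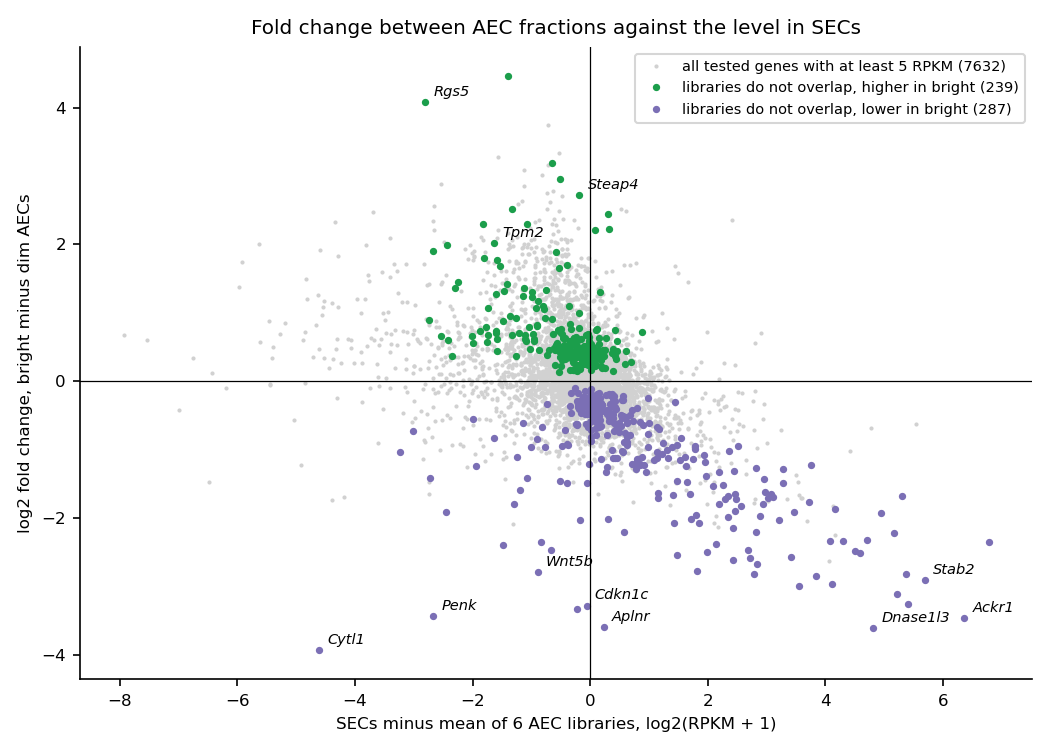
Log2 fold change of Nestin-GFPbright minus Nestin-GFPdim AECs (y axis) against the log2 difference of SECs minus the mean of the 6 AEC libraries (x axis) for 7632 tested genes with at least 5 RPKM in either fraction. The 287 genes with non-overlapping libraries that are lower in Nestin-GFPbright AECs reach far to the right, among them Ackr1 and Stab2, while Cytl1 and Penk lie to the left. The x axis uses the AEC libraries by which these genes were chosen.

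Sinusoidal genes were lower in Nestin-GFPbright AECs, and Nestin-GFPdim replicate 3 held the most of them. All 24 genes on the sinusoidal list were tested; libraries did not overlap for 11 that were lower (background 3.96%) and 0 that were higher, and the median log2 fold change was -1.71. The summed level was 1430, 1670 and 1220 RPKM in Nestin-GFPbright AECs, 1880, 5320 and 2100 RPKM in Nestin-GFPdim AECs, and 12900 RPKM or more in SECs. Medians within numbers 1, 3 and 4 were -0.68, -2.75 and -1.25. Without Nestin-GFPdim replicate 3 the median was -1.11, and 9 of 24 members were lower at an unadjusted p under 0.05. With only the libraries numbered 3 and 4 the median was -2, with 16 members lower at an unadjusted p under 0.05 against 11 in the fit of all 6 libraries. Without Nestin-GFPbright replicate 1 this count was 7, without Nestin-GFPbright replicate 4 it was 6, and with the replicate block it was 15. The list names genes already known to differ in these libraries between AECs and SECs, so it was not chosen independently.

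Stab2, a scavenger receptor for hyaluronan, stood at 1.37, 0.289 and 0.365 RPKM in Nestin-GFPbright AECs, against 3.38, 36 and 9.74 RPKM in Nestin-GFPdim AECs and 202 RPKM or more in SECs. Dnase1l3, a secreted nuclease, stood at 0.635, 0.255 and 0.953 RPKM in Nestin-GFPbright AECs against 5.35, 53.7 and 19.7 RPKM in Nestin-GFPdim AECs. Ackr1, the atypical chemokine receptor of venules, stood at 11.9, 1.54 and 3.48 RPKM in Nestin-GFPbright AECs against 12.4, 244 and 59.1 RPKM in Nestin-GFPdim AECs, and its difference within number 1 was only -0.05. Vcam1, a ligand of leukocyte integrins, stood at 27.3, 62.2 and 55 RPKM in Nestin-GFPbright AECs, against 82.6, 396 and 147 RPKM in Nestin-GFPdim AECs. Vcam1 also stands on the macrophage list, of which 3 of 21 tested genes were lower and 0 higher without overlap (background 3.96% and 3.52%). They include Mrc1, a mannose receptor that sinusoidal endothelium also expresses. The other 18 macrophage genes had positive fold changes, and the list had a median of 0.47, with 0.1 to 1.12 as each library was left out. Its summed level was 17200, 2570 and 5410 RPKM in Nestin-GFPbright AECs and 10400, 1590 and 846 RPKM in Nestin-GFPdim AECs, so that the Nestin-GFPbright library was the higher within each number. At an unadjusted p under 0.05, 0 were higher and 3 lower, with the replicate block 3 and 3, and without Nestin-GFPbright replicate 3 they numbered 4 and 3.

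Genes of veins and capillaries showed the same direction. All 15 were tested, with a median log2 fold change of -1.16, and 4 were lower without overlap (background 3.96%), namely Ackr1, Nr2f2, Aplnr and Gpihbp1. Nr2f2, the transcription factor of venous identity, stood at 0.279, 1.65 and 1.47 RPKM in Nestin-GFPbright AECs, against 2.63, 7.54 and 2.84 RPKM in Nestin-GFPdim AECs and 26.1 RPKM on average in SECs. At an unadjusted p under 0.05, 4 were lower and 0 higher, with the replicate block 8 and 0, and without Nestin-GFPdim replicate 3 they numbered 2 and 0, with a median of -1.06, and without Nestin-GFPdim replicate 1 they numbered 7 and 0. Sele, an endothelial selectin, stood at 0.989, 3.34 and 1.91 RPKM in Nestin-GFPbright AECs against 4.15, 125 and 23.7 RPKM in Nestin-GFPdim AECs. Plvap, which forms the diaphragms of fenestrae, stood at 129, 521 and 140 RPKM in Nestin-GFPbright AECs against 442, 651 and 1300 RPKM in Nestin-GFPdim AECs, with overlap.

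Arterial genes did not separate the fractions. Of 30 arterial genes, all tested, 0 had non-overlapping libraries and 0 had an unadjusted p under 0.05 in either direction; with the replicate block 7 were higher and 2 lower. Their median log2 fold change was 0.48, with medians of 0.38, 1.54 and -0.1 within numbers 1, 3 and 4, and it was -0.07 without Nestin-GFPdim replicate 1, 0.1 without Nestin-GFPbright replicate 3 and 1.11 without Nestin-GFPdim replicate 4, when 7 were higher at an unadjusted p under 0.05. Replicate 4 had the highest arterial sum of the Nestin-GFPdim libraries, 7730 RPKM against 1980 and 2660 RPKM in replicates 1 and 3, while Nestin-GFPbright AECs had 1650, 5610 and 5530 RPKM. SECs summed to at most 520 RPKM, so that both fractions held the arterial markers.

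Single arterial genes differed in direction. Gja5, which encodes the gap junction protein connexin 40, stood at 48.6, 194 and 254 RPKM in Nestin-GFPbright AECs, against 20.2, 18.6 and 157 RPKM in Nestin-GFPdim AECs. Fbln5, an elastic fibre protein, stood at 172, 677 and 560 RPKM in Nestin-GFPbright AECs against 61.9, 99.4 and 362 RPKM in Nestin-GFPdim AECs. Mgp, an inhibitor of calcification, was turned the other way, at 85.1, 280 and 246 RPKM in Nestin-GFPbright AECs and 460, 278 and 1690 RPKM in Nestin-GFPdim AECs. All of these ranges overlapped. With overlap too, Trpv4, a calcium channel opened by stretch and warmth, stood at 11.5, 45.9 and 53.7 RPKM in Nestin-GFPbright AECs against 1.9, 5.71 and 24.9 RPKM in Nestin-GFPdim AECs.

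**Figure D5:**
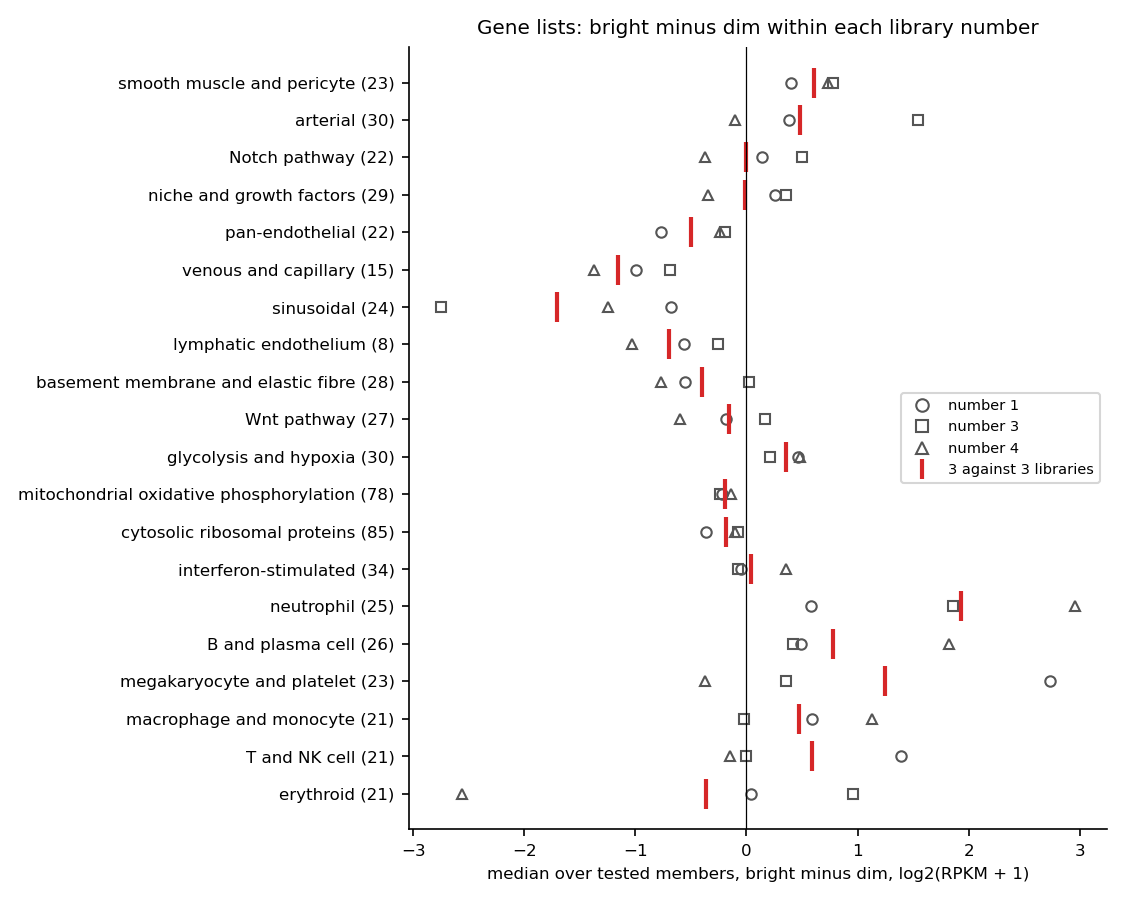
Median difference in log2(RPKM + 1) over the tested members of 20 gene lists, Nestin-GFPbright minus Nestin-GFPdim AECs, within each library number (open markers) and for 3 against 3 libraries (red bars), with the number of tested members in brackets. The smooth muscle and pericyte, glycolysis, neutrophil and B and plasma cell medians lie above 0 in each number. The sinusoidal, venous, pan-endothelial, lymphatic, oxidative phosphorylation and ribosomal medians lie below 0 in each number. The arterial median is -0.1 within number 4.

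Genes shared by all endothelium had a median fold change below 0 within each number, and the groups overlapped for every gene. The 22 pan-endothelial genes had a median of -0.5, and 11 were lower in Nestin-GFPbright AECs within all 3 numbers; 0 had an unadjusted p under 0.05 in either direction; with the replicate block 9 were lower and 0 higher. The median was 0.08 without Nestin-GFPbright replicate 1, -0.84 without Nestin-GFPdim replicate 1 and -0.22 without Nestin-GFPdim replicate 3. Kdr, the main VEGF receptor, stood at 22, 123 and 105 RPKM in Nestin-GFPbright AECs, against 87.4, 322 and 251 RPKM in Nestin-GFPdim AECs. Replicate 1 of each fraction, with its high neutrophil sum, had the lowest level. Emcn, an endothelial sialomucin that is low in arteries, stood at 25.1, 121 and 96.9 RPKM in Nestin-GFPbright AECs against 104, 291 and 103 RPKM in Nestin-GFPdim AECs.

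Factors that act on hematopoietic stem cells did not separate the fractions. Kitl, the ligand of Kit, stood at 30.7, 117 and 65 RPKM in Nestin-GFPbright AECs, against 20.7, 32.5 and 94.7 RPKM in Nestin-GFPdim AECs, and Cxcl12, a chemokine that retains these cells in marrow, stood at 66.3, 257 and 296 RPKM in Nestin-GFPbright AECs against 50.1, 69.2 and 219 RPKM in Nestin-GFPdim AECs. Both were named after their values were seen. The log2 fold changes were 0.61 (standard error 0.68) for Kitl and 0.9 (standard error 0.76) for Cxcl12. Of 29 tested niche and growth factor genes, 0 were higher and 2 were lower without overlap (background 3.52% and 3.96%), Fgf1 and Ptn, which encodes pleiotrophin. At an unadjusted p under 0.05, 0 were higher and 2 lower, and with the replicate block 5 and 3. Ptn stood at 0.00336, 0.00336 and 0.255 RPKM in Nestin-GFPbright AECs, the first 2 without a read, against 0.776, 2.42 and 0.716 RPKM in Nestin-GFPdim AECs. Pgf, a ligand of the VEGF receptor Flt1, stood at 4.64, 65 and 20.1 RPKM in Nestin-GFPbright AECs against 2.83, 9.78 and 0.945 RPKM in Nestin-GFPdim AECs, with overlap but a higher Nestin-GFPbright library in each number.

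Notch and matrix genes showed a few members apart. Of 22 Notch pathway genes, 2 were higher and 1 was lower without overlap (background 3.52% and 3.96%). With the replicate block 3 were higher and 2 lower at an unadjusted p under 0.05 (background 5.98% and 3.39%). Notch3 passed the filter only through Nestin-GFPbright AECs. Besides Notch3, Heyl, a Notch target known from mural cells, was higher, at 0.687, 0.872 and 2.5 RPKM in Nestin-GFPbright AECs against 0.251, 0.175 and 0.259 RPKM in Nestin-GFPdim AECs. Lfng, a glycosyltransferase that modifies Notch, was lower, at 11.4, 16.3 and 3.67 RPKM in Nestin-GFPbright AECs against 17.4, 18.9 and 17.7 RPKM in Nestin-GFPdim AECs. Of 28 basement membrane and elastic fibre genes, 0 were higher and 3 were lower without overlap (background 3.52% and 3.96%). With the replicate block 2 were higher and 8 lower at an unadjusted p under 0.05 (background 5.98% and 3.39%). Mfap2, a microfibril protein, stood at 5.13, 12.1 and 10.6 RPKM in Nestin-GFPbright AECs, against 27.6, 38.4 and 14.4 RPKM in Nestin-GFPdim AECs, and Col15a1, a basement membrane collagen, at 0.649, 3.19 and 1.8 RPKM in Nestin-GFPbright AECs against 3.71, 7.71 and 5.23 RPKM in Nestin-GFPdim AECs. Emilin1, an elastic fibre protein, was the third. Of 17 tested stromal genes, Postn and Col1a2 were higher without overlap (background 3.52%), Postn at no more than 2.88 RPKM and Col1a2 at no more than 0.878 RPKM. Postn passed the filter only through Nestin-GFPbright AECs. With the replicate block, 3 of the 17 were higher and 1 lower at an unadjusted p under 0.05 (background 5.98% and 3.39%). The stromal list summed to 32, 50.9 and 98.1 RPKM in Nestin-GFPbright AECs and to 34.3, 45.5 and 90.7 RPKM in Nestin-GFPdim AECs.

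Single genes of signalling and calcium binding were also higher in Nestin-GFPbright AECs, with narrow spread. Fosl1 and S100a4 were named for their small p values, a choice that favours narrow spread. Fosl1, which encodes the AP-1 factor Fra-1, stood at 30.2, 38.5 and 30.2 RPKM in Nestin-GFPbright AECs, against 12.5, 12.6 and 12.2 RPKM in Nestin-GFPdim AECs. Its log2 fold change of 1.33 (standard error 0.23) had the smallest p of the genes that were higher (unadjusted p = 0.000704 without a block, adjusted p = 0.999 from limma). SECs had 10.2 to 12.6 RPKM, a range like that of Nestin-GFPdim AECs. S100a4, a calcium-binding protein, stood at 96.2, 154 and 127 RPKM in Nestin-GFPbright AECs, against 37.1, 20.7 and 43.6 RPKM in Nestin-GFPdim AECs. Of the 32 tested immediate early and heat shock genes, Fosl1 was the only 1 whose libraries did not overlap and the only 1 with an unadjusted p under 0.05. Within every number 10 of the 32 were higher and 0 lower, and with the replicate block 5 were higher and 0 lower at an unadjusted p under 0.05.

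A receptor and a cytokine chosen after their values were seen had the same shape. P2ry6, a receptor for UDP, stood at 6.19, 10.4 and 8.5 RPKM in Nestin-GFPbright AECs against 1.76, 0.691 and 3.16 RPKM in Nestin-GFPdim AECs. Tnf, the inflammatory cytokine, stood at 21, 14.4 and 15.1 RPKM in Nestin-GFPbright AECs against 6.41, 5.23 and 2.51 RPKM in Nestin-GFPdim AECs. By the rule for named genes, Fez1, an adaptor of kinesin transport, and Ms4a4d, a tetraspan membrane protein, also stood out, with log2 fold changes of 2.3 (standard error 0.54) and 2.52 (standard error 0.6). Ms4a4d stood at 2.42, 13 and 10.5 RPKM in Nestin-GFPbright AECs, against 0.00448, 0.424 and 1.04 RPKM in Nestin-GFPdim AECs, the first of these without a read.

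Immunoglobulin variable segments filled 6 of the 12 places among the widest gaps that were higher in Nestin-GFPbright AECs. Ighv2-2, Ighv1-80, Ighv1-76, Ighv1-52, Ighv1-69 and Ighv1-85 are members of multigene families in which reads can be split between close copies, and they are transcribed in B and plasma cells. Ighv1-52 and Ighv1-85 had no read in any Nestin-GFPdim library and passed the filter only through Nestin-GFPbright AECs. Ighv2-2 stood at 829, 3.58 and 3.19 RPKM in Nestin-GFPbright AECs, against 0.425, 0.0194 and 0.0194 RPKM in Nestin-GFPdim AECs, the last 2 without a read. Cd79a, a B cell receptor gene named after its values were seen, overlapped, at 410, 30.5 and 52.1 RPKM in Nestin-GFPbright AECs against 295, 17.3 and 2.52 RPKM in Nestin-GFPdim AECs.

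Genes of energy metabolism and translation had list medians from -0.19 to 0.36, and 0 of them had an unadjusted p under 0.05 in the fit without a block. Of 78 genes of mitochondrial oxidative phosphorylation, 12 were lower in Nestin-GFPbright AECs without overlap (background 3.96%) and 0 were higher, with a median log2 fold change of -0.19; with the replicate block 2 were lower and 0 higher at an unadjusted p under 0.05. Ndufa8, a subunit of complex I, stood at 137, 97.8 and 131 RPKM in Nestin-GFPbright AECs, against 194, 206 and 153 RPKM in Nestin-GFPdim AECs. Of 85 cytosolic ribosomal protein genes 2 were lower and 0 higher without overlap (background 3.96% and 3.52%), with a median of -0.18 and 0 past that p with the block. The 30 glycolysis and hypoxia genes had a median of 0.36 with 0 apart in either direction, and with the block 5 were higher and 0 lower. Of 34 interferon-stimulated genes, 4 were higher without overlap and 0 lower (background 3.52% and 3.96%), at a median of 0.04. With the block 3 were higher and 1 lower (background 5.98% and 3.39%). Irf7, an interferon regulatory factor, stood at 44.6, 52.1 and 52.3 RPKM in Nestin-GFPbright AECs, against 33.2, 33.6 and 28.7 RPKM in Nestin-GFPdim AECs.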

How the data were processed

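RNA of sorted cells was amplified with SMART-Seq v4, made into Nextera XT libraries and read on an Illumina HiSeq. STAR aligned the reads, HTSeq counted them, edgeR 3.12.0 scaled the libraries, and the authors deposited the results as log2 RPKM of 17232 genes. All 9 columns were matched to samples by name. The labels name mm9, but 99.98% of 17087 listed positions overlapped the same gene in GENCODE M21 on GRCm38, the build used here; promoter windows are from RefSeq (GRCm38.p6). From the deposited floor (a prior of 0.25 reads) whole reads were recovered within 0.001 reads for 155079 of 155088 values; those of Bmx were not, and Bmx was left out of voom. Symbols of 25 genes were repaired through their identifiers.

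RPKM were the deposited log2 values raised back to a linear scale. Genes reaching 0.1 RPKM in 3 or more of the 6 libraries were fitted on log2(RPKM + 1) with limma 3.58.1 in R 4.3.3 (trend, no block, Benjamini-Hochberg, adjusted p under 0.05); Python 3.11.15 was used elsewhere. The fit was run on simulated reads, which lacked the differences in blood cell transcripts between these libraries. That run does not measure how the fit performs on them. Deviations from the group means of the same-numbered libraries correlated at 0.79, 0.42 and 0.15 for numbers 1, 3 and 4. Nestin-GFPbright replicate 3 correlated at 0.5 with Nestin-GFPdim replicate 4, and Nestin-GFPbright replicate 4 at 0.4 with Nestin-GFPdim replicate 3. The measure therefore set apart only number 1 as a pair, and pairing of numbers 3 and 4 is not established. Counts with the block are given beside the list counts only as an alternative. Named genes were Nes, Wnt5b and Rgs5, called genes, the 12 widest non-overlapping gaps at 5 RPKM or more and the 8 smallest p values in each direction, and up to 4 members of each list with the smallest p, 156 in all; some are not reported here, and 17 others were named after their values were seen. Members and lists were chosen with earlier results of these data known. Alternatives were other pseudocounts, filters and scalings, no trend, weights per library, the block, only libraries numbered 3 and 4, voom, and each library left out. Non-overlap counts under other filters and scalings, and list counts without doubted libraries, were added after seeing the data.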

Additional observations from a re-analysis of the deposited data

How the results depend on the processing

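With limma, 0 genes were called in all 17 alternatives, with smallest adjusted p from 0.261 to 1. The counts at an unadjusted p under 0.05 depended on the setting. Genes that were higher in Nestin-GFPbright AECs numbered 214, and 113 with a filter at 1 RPKM, 476 with weights per library, 921 with the replicate block and 633 with only the libraries numbered 3 and 4. Genes that were lower numbered 276, and 524 with weights and 521 with the replicate block. Leaving out a library gave 134 (without Nestin-GFPdim replicate 3) to 478 (without Nestin-GFPdim replicate 1) higher, and 151 (without Nestin-GFPbright replicate 4) to 418 (without Nestin-GFPdim replicate 1) lower. Genes that were higher without overlap numbered 542, and 341 with a filter at 1 RPKM, which tests fewer genes. Counts within lists with the replicate block stand beside those lists, and by adjusted p the block changed no call.

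Of 75 named genes in the text with a fit, the fold changes of 4 turned sign under some alternative, all with overlapping groups. As each library was left out in turn, Nes ranged from -0.41 to 0.83, Ly6a from -0.29 to 0.61, Pecam1 from -0.83 to 0.27 and Tagln from -0.88 to 0.65. Ly6a was also -0.18 with quantile normalization, and Tagln was 0.59 with weights per library and 0.02 with only the libraries numbered 3 and 4. List medians moved by more than the spread between the within-number medians in 77 of 595 values, in 24 of 35 lists. The causes were not tested. Depth limits the low genes most, since Nestin-GFPdim replicates 1 and 3 had the fewest reads.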

Other observations

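Lipid uptake genes with libraries that did not overlap went in both directions. Of 23 tested caveolae and lipid uptake genes, 2 were higher and 2 were lower in Nestin-GFPbright AECs without overlap, against 3.52% and 3.96% of all tested genes, and the median log2 fold change was -0.1. At an unadjusted p under 0.05, 1 was higher and 2 were lower, and with the replicate block 2 and 6. Lipg, the endothelial lipase, stood at 1.68, 0.158 and 0.393 RPKM in Nestin-GFPbright AECs, against 3.81, 25 and 5.03 RPKM in Nestin-GFPdim AECs, and averaged 90.2 RPKM in SECs. Nestin-GFPdim replicate 3, which held the most sinusoidal transcripts, had the highest level of Lipg among AECs. Of 23 tested vasoactive genes, 0 had libraries that did not overlap, and at an unadjusted p under 0.05 1 was higher and 2 were lower, and with the replicate block 3 and 4. Ramp3, a partner of the adrenomedullin receptor, stood at 13.5, 58.8 and 43.7 RPKM in Nestin-GFPbright AECs, against 102, 213 and 57.2 RPKM in Nestin-GFPdim AECs, with overlap.

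Some genes of low level were among those named for the smallest p values, a choice that favours little spread on log2(RPKM + 1). Lmod3, a leiomodin that binds actin, stood at 1.01, 0.532 and 1.26 RPKM in Nestin-GFPbright AECs and had no read in any Nestin-GFPdim library, which with a floor of 3 reads per library makes its mean at least 9.85-fold higher. Thy1, a surface glycoprotein of stromal cells and T cells, stood at 0.631, 0.773 and 0.617 RPKM in Nestin-GFPbright AECs, against 0.127, 0.00391 and 0.00391 RPKM in Nestin-GFPdim AECs, the last 2 without a read. Serpina3i, of the serine protease inhibitor family, was lower, at 0.179, 0.27 and 0.627 RPKM in Nestin-GFPbright AECs, against 5.11, 6.5 and 3.59 RPKM in Nestin-GFPdim AECs, and SECs had 11.3 RPKM or more. With limma, each of these genes had an adjusted p of 0.999. Lmod3 passed the filter only through Nestin-GFPbright AECs.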
